A study of Rattus norvegicus with 18 samples.

Results

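Metabotropic glutamate receptors are G protein-coupled receptors that sense glutamate at synapses. The family was followed here through 6 members, Grm2, Grm3, Grm4, Grm5, Grm7 and Grm8, chosen by gene symbol from the 32623 genes listed for each pup. Of all genes listed, 8 carry the symbol Grm followed by a digit, and the other two are not described here. The Ensembl identifiers of the 6 in the deposited tables are ENSRNOG00000013171 (Grm2), ENSRNOG00000005519 (Grm3), ENSRNOG00000000487 (Grm4), ENSRNOG00000016429 (Grm5), ENSRNOG00000005662 (Grm7) and ENSRNOG00000021468 (Grm8). RNA was sequenced from the prefrontal cortex (PFC) of 18 Sprague Dawley rat pups at postnatal day 14 (P14), 6 pups in each of 3 groups. Dams of the SAL group received saline. Dams of the postnatal (PNO) group received oxycodone (oxy) at 15 mg/kg/day from parturition until weaning, which reached their pups in the breastmilk. Dams of the in utero (IUO) group were given 10 mg/kg/day for 5 days, were raised by 0.5 mg/kg/day over 10 days to 15 mg/kg/day, were then mated, and were treated through gestation until weaning, so their pups were exposed through the placenta and the breastmilk. The labels do not say which pups were littermates, and p-values therefore measure the spread between these pups.

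The receptors fall into 3 groups by sequence and coupling. Group I receptors, here Grm5, couple to Gq, drive phospholipase C and the release of calcium from internal stores, and sit mainly on the postsynaptic side around the edge of the synapse. Group II (Grm2 and Grm3) and group III (Grm4, Grm7 and Grm8) couple to Gi/o, lower adenylyl cyclase activity, and act largely as presynaptic brakes on transmitter release, while Grm3 is also an astrocyte receptor and Grm7 lies in the active zone itself.

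Promoter sequences were at hand for 3 of the 6 members (Grm5, Grm7 and Grm8) in the RefSeq table of rat build GRCr8. Those of Grm5 and Grm7 are shown because the levels of this pair varied together across pups, as described further on. Each line gives the 250 bases before the annotated start, 5′ to 3′ on the strand of the gene, with matches to GGGCGG (the GC box, searched on both strands) in capitals.

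Grm5, chr1:150733503-150733752, plus strand: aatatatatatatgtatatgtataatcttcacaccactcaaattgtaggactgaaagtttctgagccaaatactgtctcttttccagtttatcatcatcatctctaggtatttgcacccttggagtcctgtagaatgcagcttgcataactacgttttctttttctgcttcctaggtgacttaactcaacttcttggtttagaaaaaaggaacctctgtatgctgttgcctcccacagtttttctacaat

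Grm7, chr4:145286476-145286725, plus strand: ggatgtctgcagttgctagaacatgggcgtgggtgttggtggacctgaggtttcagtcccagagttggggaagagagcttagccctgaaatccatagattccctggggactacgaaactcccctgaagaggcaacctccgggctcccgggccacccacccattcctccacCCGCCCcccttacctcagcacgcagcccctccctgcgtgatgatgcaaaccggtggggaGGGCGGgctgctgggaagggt

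The Grm7 window held 2 GC boxes, and 30.5% of the 33469 rat promoters of the same length hold at least 1. The Grm5 window held no match to the GC box, to TGACG (the core of the cAMP response element, in 18.2% of promoters) or to TATAAA (the TATA box, in 12.9%). Its GC content was 36.4% with 1 CpG, against 62.0% with 9 CpG for Grm7 and a median of 51.2% with 5 CpG over all promoters. The Grm8 window (chr4:57687507-57687756, minus strand) had a GC content of 47.2%, 5 CpG and none of the 3 motifs. These matches describe letters only.

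Summed expected counts lay between 18381819 and 26084780 per pup. The counts of a member in a pup lay between 226 (Grm5) and 1929 (Grm5), for a counting error of 2.90% to 5.33% (coefficient of variation at the mean count). The summed level of 9 markers of striatal medium spiny neurons reached 1635 CPM (counts scaled to a common library total after TMM normalization) in SAL, 1387 in PNO and 1990 in IUO, with medians of 326, 335 and 709 CPM. Markers of cortical excitatory neurons were present in every pup, with a summed level of 997 to 2483 CPM over 7 genes, as the label PFC implies. SAL replicate 6 stood apart on olfactory bulb markers, with 659 CPM of Cdhr1, a mitral and tufted cell gene, against a median of 23.9 CPM over the 18 pups. PNO replicate 1 had the highest level of Ttr, a choroid plexus gene, at 938 CPM against a median of 21.9 CPM. In bulk tissue, fewer cells of a type and less RNA per cell cannot be told apart.

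All 6 receptors were expressed at P14. Levels of different genes were compared in TPM, the deposited value per length of transcript. Grm4 had the highest mean at 30.4 ± 9.12 TPM (SD, n = 18), followed by Grm7 at 24.3 ± 6.15, Grm5 at 21.7 ± 11.8, Grm2 at 18.7 ± 4.92, Grm3 at 14.9 ± 5.10 and Grm8 at 7.43 ± 1.61. Grm8 was the lowest of the 6 in 17 of 18 pups, and Grm3 was above Grm8 in all 18. For the other neighbours in this order the mean log2 difference was smaller than its SD over pups, as in Grm4 over Grm7 (0.31, SD 0.33). That describes single pups and is not a test of the order. Grm4 was above Grm7 in 14 of 18 pups, Grm7 above Grm5 in 14, Grm5 above Grm2 in 10 and Grm2 above Grm3 in 11. Deposited FPKM values differ from TPM by a constant factor within a pup and add no separate evidence on this order.

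The first question was whether oxy exposure, through the breastmilk alone or through the placenta as well, went with a different transcript level of any receptor. None of the 6 passed an adjusted p of 0.05 in any of the 3 comparisons by edgeR's quasi-likelihood test with Benjamini-Hochberg adjustment over 15703 genes. The background share of genes passing was 0% when PNO or IUO was set against SAL, and 0.0637% when IUO was set against PNO. DESeq2 called 0 of the 6 in each comparison, where it called 0.00845%, 0.309% and 2.65% of all genes in the same order. Limma-voom with sample quality weights called 0, 0 and 1 of the 6, where it called 0%, 0.274% and 12.9% of all genes, and the 1 was Grm5 between IUO and PNO. At an unadjusted p under 0.05, edgeR picked out 0 members for PNO against SAL (4.5% of all genes), 1 in the contrast of IUO with SAL (6.88%) and 0 in that of IUO with PNO (15.3%). Values of the compared groups overlapped for all 6 receptors in every comparison, where the share of all genes with no overlap was 0.108% for PNO and SAL, 0.745% for IUO and SAL and 1.66% for IUO and PNO. An edgeR F test for any difference between the 3 groups also passed none of the 6, against 0.00637% of all genes, and its smallest adjusted p was that of Grm8 at 0.553.

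**Figure D1:**
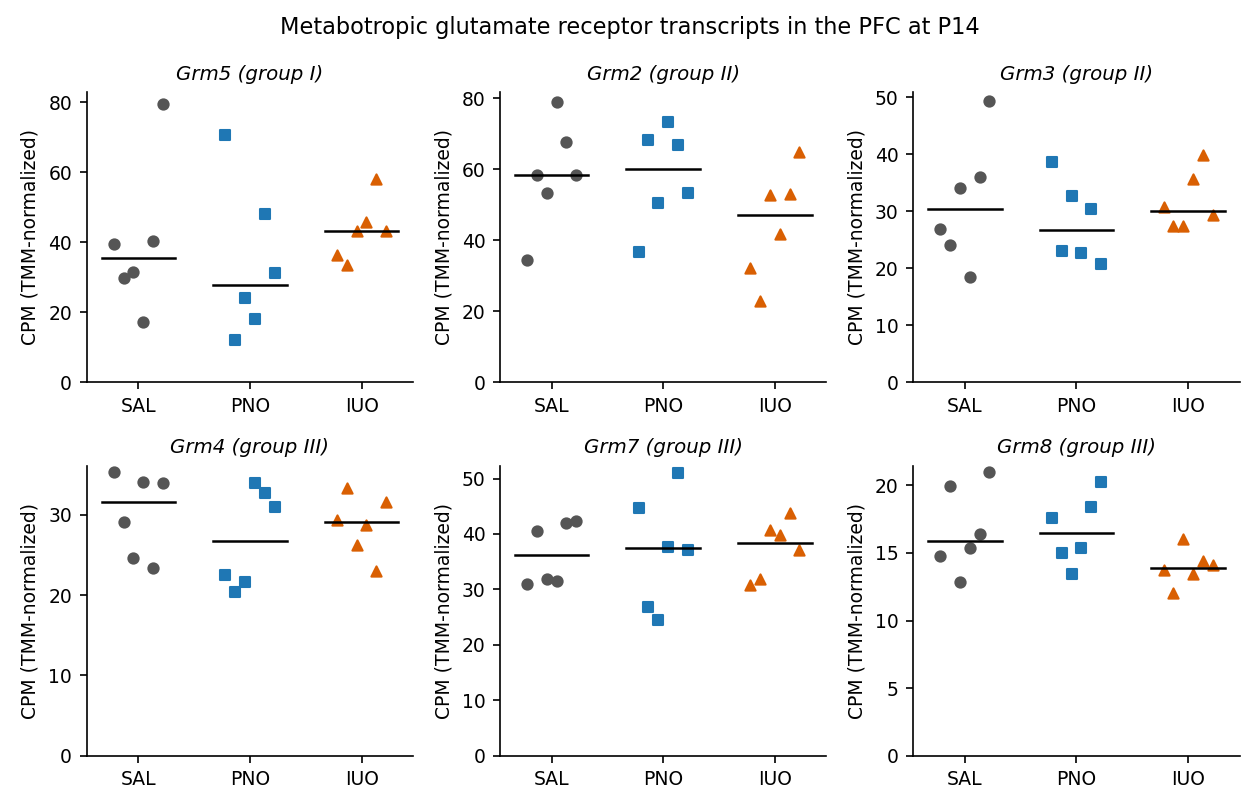
TMM-normalized CPM (vertical axes, from 0) of the 6 receptors in each pup of SAL (circles), PNO (squares) and IUO (triangles), with a line at the median of each group of 6. Grm5 ranged from 11.9 to 79.5 CPM over the pups, and the 6 IUO values of Grm8 lay between 12.004 and 16.0 CPM.

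Grm5, the group I receptor, was the most variable member. Its level was 17.3 CPM in the lowest SAL pup, 35.5 at the median and 79.5 in the highest. In PNO the lowest, median and highest values were 11.9, 27.7 and 70.5 CPM. In IUO they were 33.4, 43.2 and 58.1 CPM. The highest and lowest pups of SAL and PNO thus spanned the whole IUO range, and all 6 IUO pups lay above the PNO median. Over the 18 pups the highest value was 6.67 times the lowest, with a coefficient of variation of 45.2% where counting alone would give 3.35%. The coefficient of variation of the other 5 members lay between 16.8% (Grm8) and 28.6% (Grm2). Grm5 differed by -0.22 on the log2 scale between PNO and SAL (SE 0.37, adjusted p = 0.923 by edgeR's quasi-likelihood test), by 0.13 between IUO and SAL (SE 0.37, adjusted p = 0.996) and by 0.35 between IUO and PNO (SE 0.37, adjusted p = 0.670). The 95% interval of the last difference ran from -0.43 to 1.13, which leaves room for a change of up to 2.18-fold.

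Single pups moved these Grm5 differences. Without SAL replicate 6, the pup with 79.5 CPM, PNO minus SAL became 0.10 and IUO minus SAL 0.45. Without PNO replicate 1, with 70.5 CPM, PNO minus SAL became -0.57 and IUO minus PNO 0.69. Without SAL replicate 4, with 17.3 CPM, IUO minus SAL became -0.03. Without PNO replicate 2, with 11.9 CPM, IUO minus PNO became 0.17. No adjusted p fell below 0.05 in any of these fits, the lowest being 0.252 by edgeR's quasi-likelihood test. With sample quality weights in limma-voom, which give unusual libraries less say, IUO minus PNO was 0.84 with an adjusted p of 0.0417, in a fit that called 12.9% of all genes in that comparison. The same limma-voom fit gave -0.41 for PNO minus SAL (adjusted p = 0.724) and 0.43 for IUO minus SAL (adjusted p = 0.332). With a score of 8 myelin genes as covariate in the edgeR fit, IUO minus PNO turned to -0.12 and PNO minus SAL to 0.12.

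Grm2 is a group II autoreceptor of glutamatergic terminals. Its level was 34.4 CPM in the lowest SAL pup, 58.3 at the median and 78.9 in the highest. In PNO these values were 36.7, 60.0 and 73.4 CPM, and in IUO 22.8, 47.2 and 65.0 CPM. In IUO 2 pups, replicates 1 and 2, lay below every SAL and PNO pup, and 5 of 6 IUO pups lay below the SAL median. IUO minus SAL was -0.39 on the log2 scale (SE 0.23, 95% interval -0.88 to 0.10, adjusted p = 0.834 by edgeR's quasi-likelihood test, p = 0.158 by a two-sided exact permutation test). IUO minus PNO was -0.38 (SE 0.23, adjusted p = 0.444 by the same edgeR test, exact permutation p = 0.149). PNO and SAL differed by -0.01 (SE 0.23, 95% interval -0.50 to 0.48). Without IUO replicate 2 the difference from SAL became -0.27, and without IUO replicate 6 it became -0.53.

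Grm3, the other group II receptor, is shared by neurons and astrocytes. Its lowest, median and highest values were 18.5, 30.5 and 49.4 CPM in SAL. They were 20.7, 26.7 and 38.6 CPM in PNO and 27.4, 30.0 and 39.8 CPM in IUO. The group medians were close and the IUO range lay inside that of SAL. The differences on the log2 scale were -0.17 for PNO minus SAL (SE 0.20), 0.01 for IUO minus SAL (SE 0.20) and 0.18 for IUO minus PNO (SE 0.20), with adjusted p between 0.688 and 0.999 by edgeR's quasi-likelihood test. SAL replicate 6 had the highest Grm3 of all pups, and without it IUO minus SAL became 0.18 and PNO minus SAL 0.00. IUO minus PNO was 0.096 without IUO replicate 5, 0.29 without PNO replicate 1 and 0.37 in limma-voom with sample quality weights (adjusted p = 0.119). In that limma-voom fit IUO minus SAL was 0.19 (adjusted p = 0.499).

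Grm4, a group III receptor, measured 23.4, 31.5 and 35.4 CPM in the lowest, median and highest SAL pup. In PNO these were 20.4, 26.8 and 33.9 CPM, and in IUO 23.0, 29.0 and 33.3 CPM. The PNO pups split evenly, 3 of them below every SAL pup and 3 within the SAL range. PNO minus SAL was -0.15 (SE 0.15), IUO minus SAL -0.07 (SE 0.15) and IUO minus PNO 0.09 (SE 0.15) on the log2 scale, with adjusted p between 0.80 and 0.996 by edgeR's quasi-likelihood test. Without PNO replicate 2 the difference of PNO from SAL was -0.084 and that of IUO from PNO 0.017, and without PNO replicate 4 they were -0.23 and 0.16. IUO minus SAL lay between -0.13 (without SAL replicate 5) and -0.018 (without IUO replicate 5).

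The length by which TPM is divided varied more for Grm4 than for the other members. Its mean transcript length, an average weighted by the estimated shares of the 4 transcripts listed for it, ran from 1291 to 2190 bases between pups, a ratio of 1.70, while the ratio was at most 1.15 for the other 5 members. TPM divides by that length, so a pup with the same Grm4 counts but a shorter mean transcript has a higher TPM. By counts Grm4 was 0.09 higher in IUO than in PNO on the log2 scale, and by TPM 0.34 (adjusted p = 0.539 by limma on log2(TPM + 0.1)). The same change took Grm5 from 0.35 to 0.66 (adjusted p = 0.513 by limma) with a mean length that hardly varied. It also leaves out the TMM scaling and compares means of logs in limma in place of the edgeR fit. Mean log2 CPM, with TMM scaling kept, was 5.42 in IUO and 4.84 in PNO for Grm5, and 4.84 and 4.73 for Grm4. The part of each step was not tested. The mean length was 1661 ± 270 bases in SAL, 1679 ± 309 in PNO and 1514 ± 177 in IUO (SD, n = 6), and the exact permutation test of IUO against either other group gave p = 0.303 (adjusted p = 0.455 over 3 comparisons). The rank of Grm4 as the highest member in TPM rests on these estimated lengths.

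**Figure D2:**
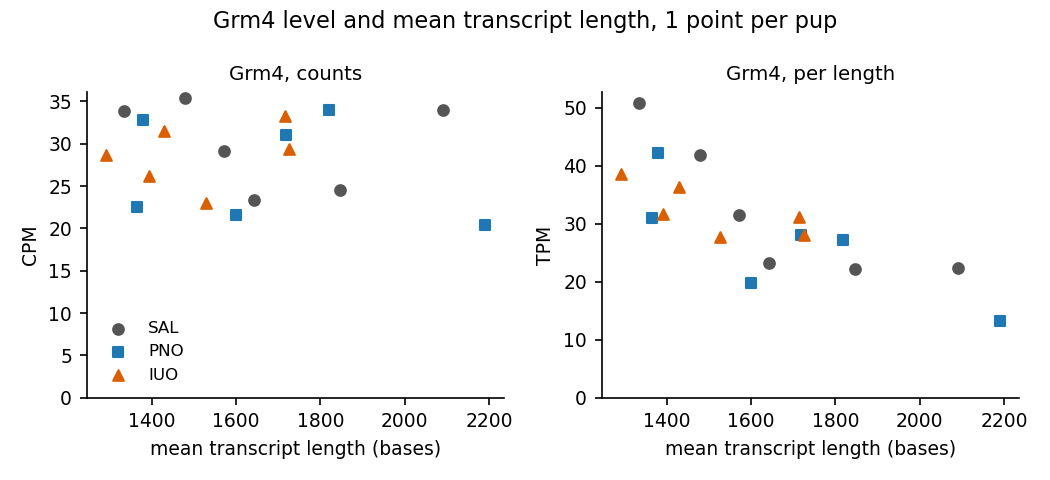
Grm4 level in CPM (left, from 0) and TPM (right, from 0) against its mean transcript length in bases, 1 point per pup (SAL circles, PNO squares, IUO triangles). CPM stayed between 20.4 and 35.4 over lengths of 1291 to 2190 bases, while TPM ran from 13.2 to 50.9.

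Grm7, the group III receptor of the active zone, had fitted differences of 0.03 or less in all 3 comparisons. Its lowest, median and highest values were 31.0, 36.2 and 42.3 CPM in SAL. They were 24.5, 37.4 and 51.0 CPM in PNO and 30.7, 38.4 and 43.7 CPM in IUO. The PNO pups reached both above and below the SAL range, with 2 pups on each side. The log2 differences were 0.02 (95% interval -0.31 to 0.35), 0.03 (-0.30 to 0.36) and 0.01 (-0.32 to 0.34) for PNO minus SAL, IUO minus SAL and IUO minus PNO. The upper ends of these intervals correspond to at most 1.29-fold, and the lower ends to at least 0.801-fold. Leaving out single pups turned the sign of each of the 3 differences, within -0.09 and 0.12. The myelin score as covariate gave 0.15, -0.10 and -0.25 in the same order, and the striatal score gave -0.0083, 0.16 and 0.17.

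Grm8, the group III receptor with the lowest level, had the smallest p-values of the 6 in both comparisons of IUO. Its lowest, median and highest values were 12.8, 15.9 and 21.0 CPM in SAL, 13.5, 16.5 and 20.2 CPM in PNO and 12.004, 13.9 and 16.0 CPM in IUO. The IUO pups sat in a narrow band in the lower part of the range of the other groups. All 6 IUO pups were below the PNO median and 5 of 6 were below the SAL median, yet only 1 IUO pup was below every SAL pup and 2 were below every PNO pup. IUO minus SAL was -0.26 on the log2 scale (SE 0.12, unadjusted p = 0.0486, adjusted p = 0.720 by edgeR's quasi-likelihood test), a fold of 0.834 with a 95% interval of 0.697 to 0.999. The two-sided exact permutation test of the same difference gave p = 0.0823, where the smallest p it can give for 6 against 6 is 0.0022. IUO minus PNO was -0.26 (SE 0.12, p = 0.0521, adjusted p = 0.331 by the edgeR test), with an exact permutation p of 0.0433. By log2(TPM + 0.1) and limma the differences were -0.23 for IUO minus SAL (adjusted p = 0.9997) and -0.14 for IUO minus PNO (adjusted p = 0.702). With the score of striatal markers, whose summed level had a median of 709 CPM in IUO and 326 in SAL, as a covariate, IUO minus SAL was -0.13 (adjusted p = 0.821 by edgeR). The means of PNO and SAL were 16.7 ± 2.51 and 16.7 ± 3.15 CPM (SD, n = 6), and the 95% interval of their ratio ran from 0.833 to 1.19. Leaving out single pups gave an unadjusted p of 0.0143 (without SAL replicate 3, difference -0.33) to 0.127 (without SAL replicate 6, difference -0.19) for the contrast of IUO with SAL. The edgeR call of 1 member at an unadjusted p under 0.05 stands against 6.88% of all genes, and 3.87% in the same direction.

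**Figure D3:**
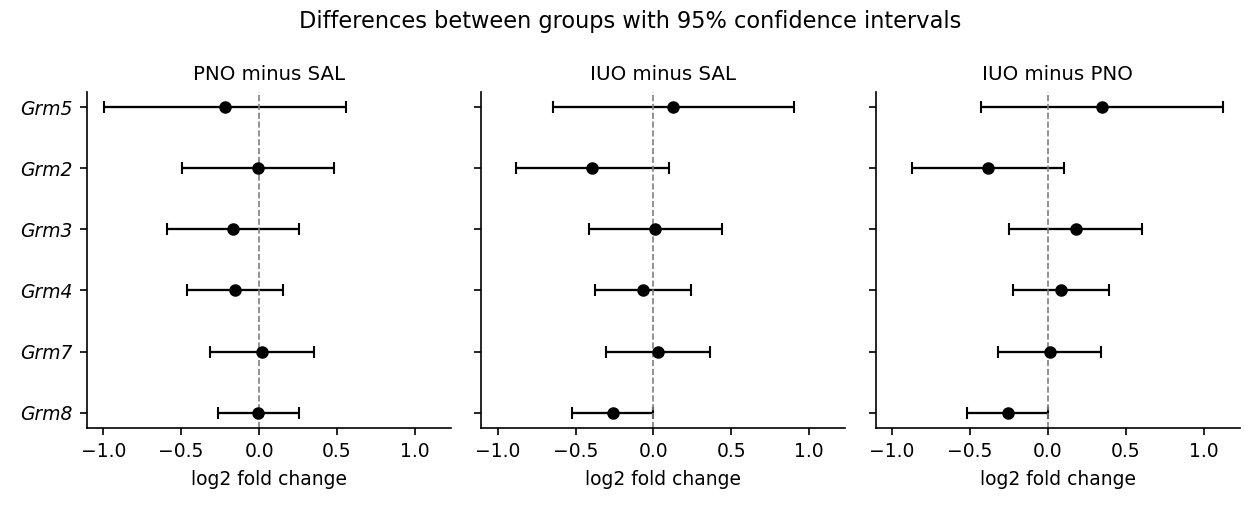
Log2 fold change (horizontal axis, points) with 95% confidence intervals (bars) for each receptor in the 3 comparisons, from edgeR's quasi-likelihood fit over all 18 pups. The Grm5 intervals are the widest, and the Grm8 difference of -0.26 between IUO and SAL has an interval that ends just below 0.

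As a set, 1 of the 6 receptors was higher and 5 were lower in PNO than in SAL, with a median log2 difference of -0.08 against 0.00 over all genes. Between IUO and SAL 3 were higher and 3 lower in IUO (median -0.03 against -0.01), and in IUO 4 were above and 2 below PNO (median 0.05 against 0.00). The comparisons share groups and are not independent of each other.

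Across the 18 pups some receptors varied together. Of 15 pairs, 2 had a correlation of log2 CPM with an adjusted permutation p under 0.05. Grm3 and Grm5 had r = 0.78 and rho = 0.77 (permutation p = 0.00016, adjusted p = 0.0024), with r = 0.92 within SAL, 0.69 within PNO and 0.80 within IUO, and 0.67 without the 2 pups farthest from the median. Grm5 and Grm7 had r = 0.67 and rho = 0.74 (permutation p = 0.0023, adjusted p = 0.0173), with r = 0.58, 0.74 and 0.92 within SAL, PNO and IUO, and 0.57 without the 2 farthest pups. Grm7 and Grm8 came next at r = 0.57 and rho = 0.57 (permutation p = 0.015, adjusted p = 0.0750). Grm2 was not among these pairs, and its r with Grm5 was -0.33 (permutation p = 0.18). Grm4 had r = 0.09 with Grm5 on log2 CPM and r = 0.76 on log2(TPM + 0.1), a scale that divides by the mean transcript length and leaves out the TMM scaling. The part of each was not tested.

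The members that varied together also varied with the share of counts from the 13 mitochondrially encoded genes. This share was 7.31% to 16.3% in SAL, 8.04% to 13.7% in PNO and 6.96% to 12.5% in IUO, with medians of 10.1%, 12.5% and 10.6%. Grm3 fell with it at r = -0.84 and rho = -0.79 (permutation p = 3e-05, adjusted p = 0.00014 over 7 relations), and r stayed between -0.91 and -0.79 within the 3 groups and was -0.77 without the 2 farthest pups. Grm5 had r = -0.83 and rho = -0.82 (permutation p = 4e-05, adjusted p = 0.00014), between -0.96 and -0.81 within groups and -0.81 without the 2 farthest pups. Grm7 had r = -0.60 and rho = -0.65 (permutation p = 0.0085, adjusted p = 0.0149), between -0.78 and -0.53 within groups and -0.58 without the 2 farthest pups. Grm2, Grm4 and Grm8 had r of 0.19, 0.20 and -0.22, with permutation p between 0.39 and 0.45. The mean transcript length of Grm4 rose with the same share at r = 0.74 and rho = 0.72 (permutation p = 0.00052, adjusted p = 0.00121), with r of 0.86 in SAL, 0.78 in PNO and 0.38 in IUO, and 0.71 without the 2 farthest pups. That length fell with Grm5 at r = -0.86 and rho = -0.85 (permutation p = 2e-05, not adjusted), with r of -0.90 in SAL, -0.95 in PNO and -0.55 in IUO, and -0.74 without the 2 farthest pups. Grm5 was the only member set against it. Receptor level and mitochondrial share are both parts of 1 library total, and the part of RNA quality or tissue make-up in these relations was not tested. With the share as a covariate, IUO minus PNO went from 0.18 to 0.035 for Grm3 and from 0.35 to 0.21 for Grm5, PNO minus SAL went from -0.17 to -0.056 for Grm3 and from -0.22 to -0.10 for Grm5, and the Grm8 difference between IUO and SAL was -0.28 in place of -0.26.

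**Figure D4:**
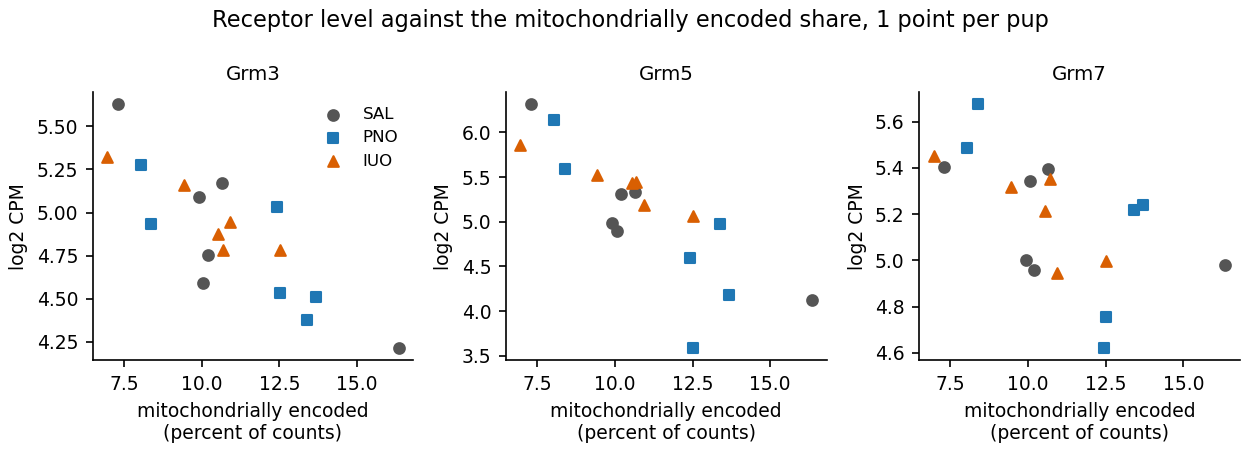
Log2 CPM of Grm3, Grm5 and Grm7 (vertical axes) against the percent of counts from mitochondrially encoded genes (horizontal axes), 1 point per pup (SAL circles, PNO squares, IUO triangles). Each of the 3 receptors was lower in pups with a higher share, with r of -0.84, -0.83 and -0.60.

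Grm2 and Grm8 varied most with marker genes of other cell types. Of 66 relations between the 6 receptors and scores of 11 marker lists (mean z-score of the markers of a list), 3 had an adjusted permutation p of r under 0.05. Grm2 fell with the striatal medium spiny neuron score at r = -0.81 and rho = -0.83 (permutation p = 2e-05, adjusted p = 0.00132), with r = -0.74, -0.70 and -0.98 within SAL, PNO and IUO, and -0.73 without the 2 farthest pups. Grm2 also fell with the interneuron score at r = -0.85 and rho = -0.71 (permutation p = 4e-05, adjusted p = 0.00132), with r = -0.89, -0.81 and -0.87 within groups, and -0.69 without the 2 farthest pups. The 7 genes of that list include Gad1, Gad2 and Slc32a1, general GABA neuron genes that are not particular to interneurons. Gad2 and Lhx6 were highest in PNO replicate 1, Slc32a1 in SAL replicate 1 and Gad1 in SAL replicate 6. Sst, Vip and Npy were highest in PNO replicate 2, with 68.2 CPM of Grm2 and a striatal score of -0.48. Single markers were not tested. Grm8 fell with the striatal score at r = -0.76 and rho = -0.77 (permutation p = 0.00029, adjusted p = 0.00638), with r = -0.80, -0.53 and -0.75 within groups, and -0.73 without the 2 farthest pups. Grm7, which varied with the mitochondrial share, had r = -0.50 with the striatal score (permutation p = 0.035, adjusted p = 0.289). Its r was -0.66, -0.51 and -0.85 within groups, and -0.44 without the 2 farthest pups. The pups with the least Grm2 in each group, SAL replicate 1, PNO replicate 1 and IUO replicate 2, had striatal scores of 1.31, 0.39 and 1.54. The highest striatal score of PNO was that of replicate 3 (1.05), while PNO replicate 1 had the highest myelin (1.78) and choroid plexus (1.55) scores of all pups. All 9 striatal markers were detected, among them Drd2 at 4.29 to 67.1 CPM and Ppp1r1b at 28.9 to 816 CPM.

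With the striatal score as a covariate, the Grm2 difference between IUO and SAL went from -0.39 to -0.17 (unadjusted p = 0.323 by edgeR's quasi-likelihood test) and that of Grm8 to -0.13 (unadjusted p = 0.214). With a score of 8 myelin genes as covariate, whose summed level had medians of 6186 CPM in SAL, 10150.1 in PNO and 2933 in IUO, the Grm2 difference was -0.59 (unadjusted p = 0.0269) and the Grm8 difference -0.34 (unadjusted p = 0.0111). The adjusted p of these values was 0.470 or more. For IUO minus PNO, Grm2 went from -0.38 to -0.11 with the striatal score and to -0.72 with the myelin score (unadjusted p = 0.0220, adjusted p = 0.442). Grm8 went from -0.26 to -0.12 with the striatal score and to -0.44 with the myelin score (unadjusted p = 0.00743, adjusted p = 0.343). How much of either difference goes with the tissue sampled was not tested beyond these fits.

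**Figure D5:**
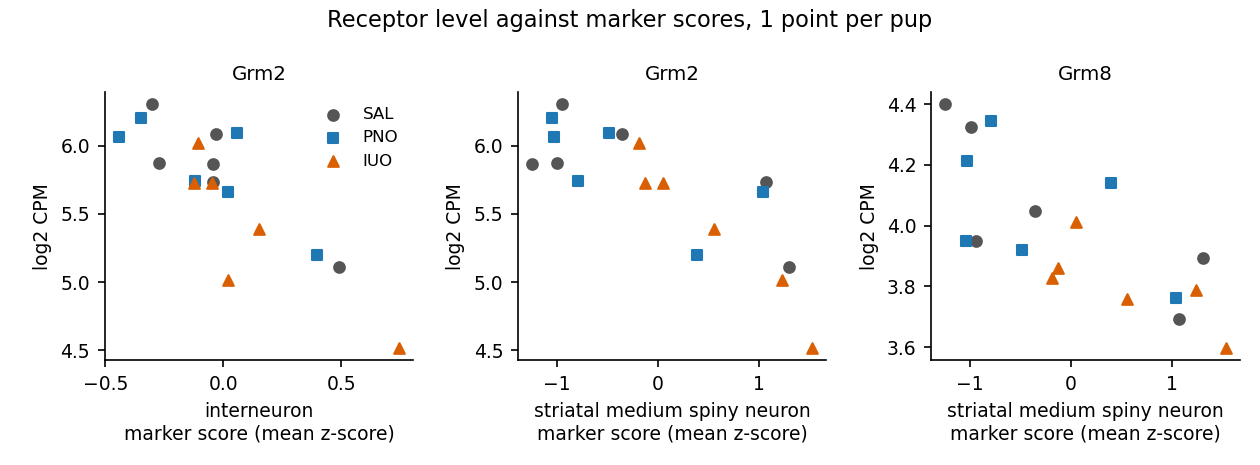
Log2 CPM of Grm2 against the interneuron score, and of Grm2 and Grm8 against the striatal medium spiny neuron score (horizontal axes, mean z-score of the markers over the 18 pups), 1 point per pup (SAL circles, PNO squares, IUO triangles). Both receptors were lower in pups with a higher score, with r of -0.85, -0.81 and -0.76.

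Grm4 had its strongest relation with the olfactory bulb list, at r = 0.62 and rho = 0.69 (permutation p = 0.0034 and adjusted p = 0.0561 for r, 0.0021 and 0.0347 for rho), so it passed by rank only. Its r was 0.83 in SAL, 0.61 in PNO and 0.30 in IUO, and 0.61 without the 2 farthest pups. Grm8 had r = 0.55 and rho = 0.47 with the same list (permutation p = 0.017 and adjusted p = 0.224 for r). The r of Grm8 was 0.57, 0.70 and 0.27 within SAL, PNO and IUO, and 0.43 without the 2 farthest pups. SAL replicate 6, which stood apart on these markers, had the highest Grm8 of all pups at 21.0 CPM. Grm5 had its strongest relation to a marker list with the myelin score at r = -0.50 and rho = -0.62 (permutation p = 0.032 and adjusted p = 0.289 for r, adjusted p = 0.0977 for rho), with r of -0.90 in SAL, 0.07 in PNO and -0.91 in IUO. Grm3 had r = 0.50 with the cortical excitatory neuron score (permutation p = 0.034, adjusted p = 0.289), with 0.50, 0.27 and 0.82 within the same groups. Among the marker genes, Npy (an interneuron peptide) was at 0 to 2.64 CPM, Otx2 (choroid plexus) at 0 to 1.39 CPM and Rora, listed for thalamic neurons, at 0.264 to 1.17 CPM.

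The genes whose levels followed each receptor most closely were found by the correlation of deviations from the group means over the 18 pups, among 15702 other genes. For Grm5 they were Xpr1, a phosphate exporter (r = 0.99), Rmnd5a, part of a ubiquitin ligase complex (r = 0.99), and Susd6 (r = 0.99), and 1690 genes (10.8%) had r over 0.8. For Grm7 they were Atp2c1, a Golgi calcium pump (r = 0.96), LOC103690141 (r = 0.95) and Mapk9, which encodes a JNK kinase (r = 0.94), and 512 genes had r over 0.8. For Grm3 they were Coro2b, an actin-binding coronin (r = 0.94), Arhgef17, a guanine nucleotide exchange factor (r = 0.93), and Atp2b1, a plasma membrane calcium pump (r = 0.92), with 392 genes over 0.8. Far fewer genes followed the others closely, 19 for Grm8, 15 for Grm4 and 6 for Grm2. Those nearest to Grm8 were Adcy8, a calcium-stimulated adenylyl cyclase (r = 0.86), Gxylt2 (r = 0.86) and AABR07020786.1 (r = 0.85). The last 2 were near the floor, with means of 0.62 and 0.86 CPM. Those nearest to Grm4 were Amigo2, a cell adhesion molecule (r = 0.87), Lig1, a DNA ligase (r = 0.85), and Cd55, a complement regulator (r = 0.84). Those nearest to Grm2 were Lrrc17 (r = 0.85), Cyb5r1 (r = 0.82) and Baalc (r = 0.82).

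The genes through which the receptors signal were examined next, in 4 lists holding 75 genes tested. None passed an adjusted p of 0.05 by edgeR's quasi-likelihood test in any comparison, and at an unadjusted p under 0.05 there were 1 for PNO against SAL (1.33% of the 75, against 4.5% of all genes), 2 between IUO and SAL (2.67% against 6.88%) and 7 between IUO and PNO (9.33% against 15.3%). Of the 75, 24 were higher in PNO than in SAL, 41 were higher in IUO than in SAL and 51 were higher in IUO than in PNO, where 50.8%, 48.0% and 49.9% of all genes were higher. The myelin markers (group medians of 6186, 10150.1 and 2933 CPM in SAL, PNO and IUO) and the mitochondrial share (medians of 10.1%, 12.5% and 10.6%) differed between the same groups, and their part in these counts was not tested.

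The arm of group I (Gq subunits, phospholipase C, IP3 receptors, Homer scaffolds, protein kinase C, TRPC channels, and proteins that bind the receptors or act in translation and signalling downstream of them, 25 genes) had 7 genes higher and 18 lower in PNO than in SAL, 15 higher and 10 lower in IUO than in SAL, and 20 higher and 5 lower in IUO than in PNO. Its median log2 difference in those comparisons was -0.08, 0.04 and 0.12, where that of all genes was 0.00, -0.01 and 0.00. Plcb2, a phospholipase C, was at 1.95 ± 0.566 CPM in PNO and 2.66 ± 0.430 in SAL (SD, n = 6, log2 difference -0.45, SE 0.20). Homer2, a scaffold that ties group I receptors to IP3 receptors, was at 9.12 ± 2.29 CPM in PNO and 12.7 ± 5.51 in SAL. Siah1, a ubiquitin ligase that binds group I receptors, was at 49.0 ± 2.89 CPM in IUO and 43.1 ± 2.38 in SAL (log2 difference 0.18, SE 0.06, adjusted p = 0.543 by edgeR's quasi-likelihood test). Cyth2, an exchange factor for Arf proteins, was at 110.1 ± 4.24 CPM in IUO and 94.8 ± 11.9 in SAL. Eef2k, the kinase that slows translation elongation, was at 42.2 ± 3.96 CPM in IUO and 35.9 ± 2.43 in PNO.

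The arm of groups II and III (Gi/o subunits, adenylyl cyclases, PDZ scaffolds, Kir3 channels and presynaptic calcium channels, 21 genes) had 4 genes higher and 17 lower in PNO than in SAL, 13 and 8 in IUO against SAL, and 16 and 5 in IUO against PNO. Its median log2 difference was -0.09, 0.02 and 0.14. Gnai2, a Gi alpha subunit, was at 238.4 ± 15.5 CPM in SAL, 223.3 ± 13.5 in PNO and 250.6 ± 19.2 in IUO (log2 difference of IUO minus PNO 0.17, SE 0.06, adjusted p = 0.222 by edgeR's quasi-likelihood test). Grip1, a PDZ scaffold, was at 33.1 ± 7.57 CPM in SAL, 27.1 ± 6.75 in PNO and 34.3 ± 2.91 in IUO. Adcy6, an adenylyl cyclase inhibited by Gi, was at 47.4 ± 2.07 CPM in IUO and 52.5 ± 4.16 in SAL. Gnaz, a Gi-like alpha subunit, was at 97.8 ± 16.3 CPM in IUO and 85.2 ± 12.9 in SAL.

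Of 11 genes of receptor desensitisation (receptor kinases, arrestins and RGS proteins), none passed even an unadjusted p of 0.05, with 4 higher in PNO than in SAL, 7 higher in IUO than in SAL and 7 higher in IUO than in PNO. Rgs7, which speeds the turning off of Gi/o proteins, was at 89.2 ± 3.97 CPM in IUO, 100.3 ± 8.83 in PNO and 90.0 ± 13.8 in SAL. Grk6, a receptor kinase, was at 76.6 ± 5.01 CPM in PNO and 82.6 ± 4.85 in SAL. Grk5 was at 11.3 ± 2.07 CPM in IUO and 9.17 ± 1.72 in PNO. Rgs8 and Grk4 had the smallest p of the list for IUO against SAL, with log2 differences of 0.21 (SE 0.18) and 0.15 (SE 0.15).

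The 18 genes of the supply and clearance of glutamate and of N-acetylaspartylglutamate, a peptide that activates Grm3, had 9, 6 and 8 genes higher in those comparisons. The smallest p was that of Gls2, a glutaminase that makes glutamate, at 17.7 ± 2.43 CPM in IUO, 24.7 ± 4.69 in PNO and 21.9 ± 4.90 in SAL (IUO minus PNO -0.48, SE 0.15, adjusted p = 0.165 by edgeR's quasi-likelihood test). Nat8l, the enzyme that makes N-acetylaspartate, was at 118.8 ± 18.0 CPM in IUO, 139.0 ± 12.6 in PNO and 137.7 ± 21.2 in SAL. Slc38a1, a glutamine transporter, was at 29.7 ± 12.9 CPM in PNO and 44.7 ± 22.1 in SAL. Glul, the glutamine synthetase of astrocytes, was at 834.5 ± 78.3 CPM in PNO and 923.6 ± 122 in SAL. None of these differences passed the adjusted threshold.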

How the data were processed

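RNA from the PFC of 18 pups (SAL, PNO and IUO, 6 each) was sequenced as 75 bp single reads, with all libraries in 1 pool on 1 flow cell. For each gene the authors deposited an expected count (reads that match several genes are shared out by estimation), a TPM and an FPKM value, and a length averaged over the listed transcripts. The aligner, quantifier, build and annotation are not given in the sources used here. Groups and replicate numbers came from the sample titles. Members were matched by symbol, and all 6 passed edgeR's filter on low counts. Members and lists were chosen with earlier results of these data known.

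Expected counts, whole in all 108 member values, were rounded elsewhere. Differential expression was computed by edgeR 4.0.16 (R 4.3.3, TMM, filterByExpr, glmQLFit and glmQLFTest in 1 model over the 18 pups, two-sided, 15 residual degrees of freedom, Benjamini-Hochberg adjustment over 15703 genes). CPM is TMM-normalized, log2 CPM used a prior count of 2, and TPM was logged as log2(TPM + 0.1) and tested with limma 3.58.1. Single members were also compared by exact permutation tests. Correlations over pups used 100000 resamples, so the smallest p possible is 1e-05. Alternatives were RLE and no composition normalization, DESeq2 1.42.0, limma-voom with quality weights, no filter, a filter of CPM over 1 in 6 pups, a fit of the 12 pups compared, covariates of marker scores, a replicate block, the exclusion of counts more than 1 SD from their group mean, and each pup left out in turn. The mitochondrial share, its covariate fit, the excitatory neuron covariate and the test of Grm4 length were added after seeing the data. The genes named are all members, the 3 genes most correlated with each, and from each pathway list the 2 with the smallest p in each comparison. The result of 1 gene named by this rule is not reported here. Genes printed as highest, lowest or absent among the markers were chosen by value. Plots were made with matplotlib 3.10.9 and tables with pandas 2.3.3 and scipy 1.17.1.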

Additional observations from a re-analysis of the deposited data

Results flagged for a closer look

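SAL replicate 4 had 16.3% of its counts from mitochondrially encoded genes, and the nearest SAL pup had 10.6%. It was marked because its gap to that pup was 0.631 of the range of the group, above Dixon's 95% limit for 6 samples. Of 24 groups of 6 values checked (the 6 receptors, the Grm4 transcript length and the mitochondrial share in each treatment group) this was the only one marked, and chance marks about 1 in 20 such groups. The same pup had the lowest Grm3 (18.5 CPM) and Grm5 (17.3 CPM) of SAL, and without it the difference of IUO minus SAL became -0.03 for Grm5 and -0.10 for Grm3. No cause was tested.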

How the results depend on the processing

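Of 450 fold changes of the receptors tested under other settings, 390 kept their direction and side of the threshold, 59 turned direction and 1 passed the threshold. Of 18 more without a test, from leaving out counts beyond 1 SD, 2 moved by more than the spread between replicates. The one past the threshold was Grm5 for IUO against PNO in limma-voom with quality weights (0.84), which made the count of members called in that comparison 1 in place of 0. Every other tested setting gave 0 members called in each comparison. The cause was not tested.

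For PNO against SAL, Grm2 turned to 0.15 in limma-voom, and 0.13 with the myelin score, Grm5 to 0.12 with the myelin score, Grm7 to -0.019 without composition normalization, -0.023 in limma-voom, -0.0083 with the striatal score and -0.098 in log2(TPM + 0.1), and Grm8 to 0.018 in limma-voom, 0.095 with the myelin score and 0.019 with the mitochondrial share. For IUO against SAL, Grm3 turned to -0.0043 without composition normalization, -0.010 with the striatal, -0.075 with the myelin, -0.052 with the excitatory neuron score and -0.021 with the mitochondrial share, Grm4 to 0.077 in log2(TPM + 0.1), Grm5 to -0.0014 with the myelin score, and Grm7 to -0.098 with the myelin, -0.023 with the excitatory neuron score and -0.013 with the mitochondrial share. For IUO against PNO, the myelin score turned Grm3 to -0.073, Grm5 to -0.12 and Grm7 to -0.25, and Grm7 was -0.042 with the excitatory neuron score and -0.062 with the mitochondrial share. Leaving out counts beyond 1 SD moved Grm8 to -0.27 for PNO against SAL and 0.0069 for IUO against PNO. It took Grm2 to -0.13 (IUO minus SAL) and -0.025 (IUO minus PNO), and Grm5 to 0.61 and 0.99.

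Leaving out single pups gave, for PNO against SAL, -0.13 to 0.094 for Grm2, -0.28 to 0.0038 for Grm3, -0.57 to 0.10 for Grm5, -0.093 to 0.11 for Grm7 and -0.070 to 0.067 for Grm8. For IUO against SAL it gave -0.10 to 0.18 for Grm3, -0.025 to 0.45 for Grm5 and -0.028 to 0.080 for Grm7, and for IUO against PNO -0.081 to 0.12 for Grm7.

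With log2(TPM + 0.1) the correlation of Grm3 and Grm4 turned to 0.50, and 6 pairs passed the adjusted threshold that did not with CPM: Grm3 and Grm7 (0.65), Grm4 and Grm5 (0.76), Grm4 and Grm7 (0.70), Grm4 and Grm8 (0.54), Grm5 and Grm8 (0.61) and Grm7 and Grm8 (0.73).

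Not every pair of same-numbered pups had a correlation over 0.1, and the labels give the numbers no shared litter or day, so the numbers were taken as names only. Deviations of same-numbered pups correlated at a mean of 0.232 (PNO and SAL), -0.027 (IUO and SAL) and 0.063 (IUO and PNO), and 6, 1 and 4 of 12 pups correlated best with their own number. Each pup was set against 6 pups of the other group, so chance gives its own number 1 time in 6. The counts for PNO with SAL and for IUO with PNO were above that share, and what same-numbered pups have in common was not tested. With the replicate block the member count called stayed at 0 in each comparison, Grm2 turned to 0.0061 and Grm7 to -0.0030 for PNO against SAL, and the Grm8 difference of IUO minus SAL was -0.24. The block took Grm5 from 0.35 to 0.55 for IUO against PNO (adjusted p = 0.388 by edgeR) and from 0.13 to 0.26 for IUO against SAL (adjusted p = 0.930). With 6 pups a group, the Grm5 interval between IUO and PNO ran from 0.743-fold to 2.18-fold in the edgeR fit.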
